A study of Homo sapiens with 12 samples.

Results

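The antioxidant and detoxification genes under the transcription factor NRF2 are described here in cells that the study gives as NCI-H520. This is a line from a human lung squamous cell carcinoma. The set held 34 genes of the 58302 in the count table, chosen by name with earlier results of these data known: NFE2L2, which encodes NRF2, its inhibitor KEAP1, its partner MAFG and genes reported as NRF2 targets. All 34 passed the filter on low counts and were among the 17849 genes tested. KEAP1 binds NRF2 in the cytoplasm and hands it to a ubiquitin ligase for degradation. When electrophiles or oxidants modify KEAP1, NRF2 accumulates, enters the nucleus, pairs with a small MAF protein such as MAFG and binds the antioxidant response element in its target genes. The targets make glutathione, run the thioredoxin system, supply NADPH and reduce, conjugate or export reactive compounds, and mutations that free NRF2 from KEAP1 are frequent in lung squamous cell carcinoma.

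The study asked what the L1-FGGY chimeric transcript and 2 inhibitors do to these cells. RNA of 12 libraries was counted in 4 groups of 3, as the labels give them. The first was the line that stably expressed L1-FGGY from a lentivirus (OV-L1-FGGY) in 0.2% DMSO, the second the same line in 10 μM ML355, an inhibitor of 12-LOX, and the third is labelled as OV-L1-FGGY in 450 μM of the reverse transcriptase inhibitor NVR. The fourth was a control in 0.2% DMSO, read as the line with the empty vector (OV-CTRL). No DMSO content is given for the libraries with ML355 or labelled NVR, so a difference in vehicle cannot be told apart from the inhibitor. In all groups the medium was replaced 5 h after seeding, and the length of treatment is not given. Whether the lines were clones, or the replicates separate cultures, is not said, so that p-values measure the spread between these libraries, which may be technical.

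The libraries fell into a pair of sets that did not follow the labels. The construct carries the L1-FGGY chimera, whose reads were not separated from those of FGGY itself in the gene table. Counted as a gene, FGGY stood at 287 ± 22.0 CPM (counts scaled to a common library size with TMM factors; SD, n = 3) in DMSO-treated OV-L1-FGGY and 318 ± 47.8 CPM (SD, n = 3) with ML355. It stood at 4.25 ± 0.523 CPM (SD, n = 3) in the NVR-labelled libraries and 3.41 ± 0.418 CPM (SD, n = 3) in the control. The label of OV-L1-FGGY with NVR was thus not matched by its FGGY level, and these 3 are called the NVR-labelled libraries throughout. Pearson's r of log2 CPM was 0.979 or more between libraries of a group and 0.706 to 0.774 between the libraries with high and with low FGGY. No pair of libraries held identical counts, and the total count ran from 16242082 to 27004768. Of 10 squamous markers, KRT5, KRT6A, DSG3 and PKP1 were under 1 CPM in every library, SOX2 was at 0 CPM in the 6 libraries with high FGGY and at 7.02 to 17.1 CPM in the others, and KRT17 was at 930 to 4798 CPM in the first set and at most 0.252 CPM in the second. PERP was at 964 to 1056 CPM in OV-L1-FGGY with DMSO, 314 to 346 CPM with ML355 and 108 to 163 CPM in the other 6 libraries. TP63 was lower in the set with high FGGY, at 0.0525 to 0.841 CPM against 1.7 to 4.14 CPM. DSC3 was at 0 to 0.746 CPM against 0.5 to 2.15 CPM, and KRT14 at 0.229 to 3.31 CPM against 0 CPM. The summed level of all 10, nearly all of it from KRT17 and PERP, was 1895 to 1993 CPM in OV-L1-FGGY with DMSO. It was 3440 to 5147 CPM with ML355 and 132 to 181 CPM in the other 6 libraries. The fibroblast markers LUM and DCN were at 61.2 to 229 CPM and 9.94 to 66.6 CPM in the set with high FGGY and at most 0.0841 CPM and 0 CPM in the other, whereas COL1A2 and POSTN stayed at or below 0.103 CPM in all 12 libraries. The summed level of the 6 fibroblast markers was 336 to 350 CPM in OV-L1-FGGY with DMSO, 111 to 121 CPM with ML355, and 19.6 to 25.2 CPM in the rest. The sums of the alveolar, neuroendocrine, endothelial and immune lists were at most 23.8 CPM in every library. The part of these differences in the results below was not tested, and every comparison across the sets compares FGGY level, line and these markers at once, which cannot be told apart. That both sets are NCI-H520 cells was not tested either.

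The element that NRF2 binds has the core TGACNNNGC, and runs of sequence that hold it are shown for some of the members in which it was found. The core was searched on both strands in the promoter windows of RefSeq, which run from 250 bases before to 50 bases after each start on GRCh38.p14. A window was found for 27 of the 34 members, and 11 of these (40.7%) held the core, against 16.1% of the 27305 genes in the table. Counted by window, it was 12 of 35 (34.3%) against 13.3% of 35116. The core of GSTP1, ME1 and PIR also held TGACTCA, the site of AP-1 factors, as 0.561% of all windows did. No core was found for NFE2L2, NQO1, SRXN1, ALDH3A1, ABCC2 or the aldo-keto reductase genes, for lack of either a window or a match. Sequence beyond the windows was not searched, so these genes may hold the core elsewhere. A match is a run of letters and not a shown binding site. Each run below is read 5′ to 3′ along its gene, with the core, or its reverse complement, in capitals.
GCLM, across the start of the gene at chr1:93909446-93909474 on the minus strand: tacgatttctGCTTAGTCAttgtcttcca
GPX2, before the gene at chr14:64942849-64942877 on the minus strand: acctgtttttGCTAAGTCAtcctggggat
TXNRD1, in an exon at chr12:104286920-104286948 on the plus strand: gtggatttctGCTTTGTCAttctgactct
GSTP1, in an exon at chr11:67583736-67583764 on the plus strand: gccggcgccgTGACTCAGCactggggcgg
ME1, before the gene at chr6:83431170-83431198 on the minus strand: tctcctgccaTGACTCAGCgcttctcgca
CBR1, before the gene at chr21:36069855-36069883 on the plus strand: tgcgggttctGCAAAGTCAggctagctgg
EPHX1, in an intron at chr1:225825266-225825294 on the plus strand: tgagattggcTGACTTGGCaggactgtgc
CYP4F11, before the gene at chr19:15935005-15935033 on the minus strand: ctgtgcccatGCTGTGTCAccctgagctg
KEAP1, in an exon at chr19:10502784-10502812 on the minus strand: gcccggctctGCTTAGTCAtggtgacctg

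The members differed widely in level, and in bulk RNA fewer expressing cells and less RNA per cell cannot be told apart. Together they took 0.782 to 0.836% of all counts in OV-L1-FGGY with DMSO, 0.587 to 0.628% with ML355, 1.98 to 2.04% in the NVR-labelled libraries and 1.95 to 2.04% in the control. Per kilobase of transcript, the highest member in OV-L1-FGGY with DMSO was the aldose reductase gene AKR1B1, at a level of 1385 ± 163 CPM per kb (SD, n = 3). It was followed by GSTP1, PRDX1 and TXN at 738, 718 and 698 CPM per kb, of which GSTP1 and PRDX1 overlapped their next neighbour in the order. In the control the highest level was that of the aldehyde dehydrogenase gene ALDH3A1, 1359 ± 135 CPM per kb (SD, n = 3), which overlapped that of GSTP1 at 1257 ± 246 CPM per kb (SD, n = 3). ALDH3A1 ranked 29 of 34 in OV-L1-FGGY with DMSO and 2 in the NVR-labelled libraries. Counted over the 3 libraries, 4 members were at most at 12 counts in OV-L1-FGGY with DMSO: AKR1B10 with 9, SRXN1 with 8, CYP4F11 with 4 and GPX2 with 1. For these, ratios of summed counts with exact intervals for counting error are given in place of fitted fold changes. The exons of 13 members overlap an exon of another gene, 11 of them on the opposite strand, as those of NFE2L2, NQO1, GCLC and PRDX1 do. Strand use in counting is not stated, so reads of such partners cannot be told apart. AKR1C1 and AKR1C2 share 98.0% of their coding bases and AKR1C3 shares 91.4% and 91.0% with them, so that counting could have split their reads.

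**Figure D1:**
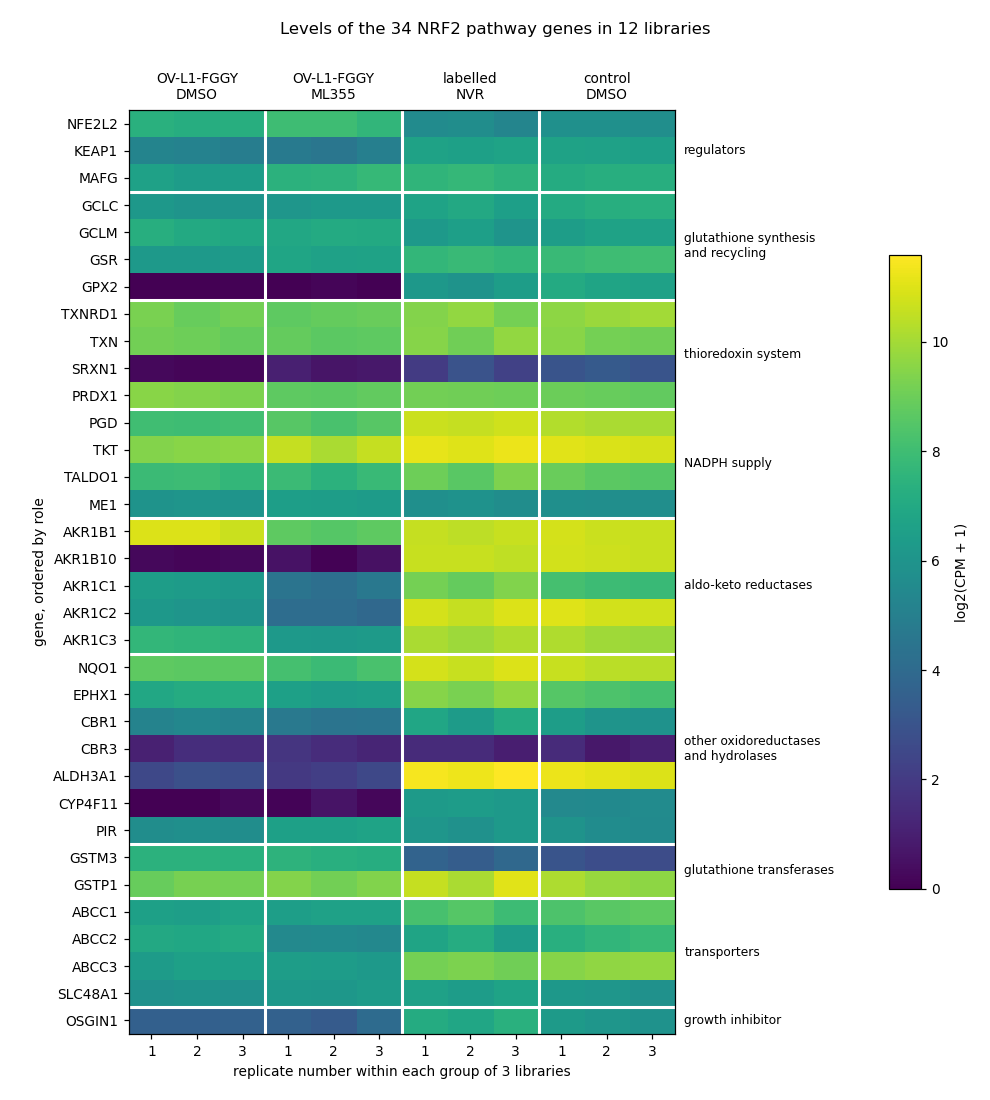
Level of the 34 genes as log2(CPM + 1), coloured from 0 (dark) upward, in the 12 libraries, with genes ordered by role and libraries by group. AKR1B10, GPX2 and CYP4F11 are dark in the 6 libraries with high FGGY, ALDH3A1 lies between 2.76 and 6.15 CPM there and between 2026 and 3074 CPM in the other 6, and NFE2L2 and GSTM3 show the reverse order.

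ML355 was compared with DMSO within OV-L1-FGGY, the only comparison in which both groups had high FGGY. With ML355 the transcripts of NFE2L2, of its partner MAFG and of 3 of 4 genes of NADPH supply rose, whereas those of 4 of 5 aldo-keto reductase genes, NQO1 and the exporter gene ABCC2 fell. Of the 34 members 8 rose, against 21.3% of all genes tested, and 9 fell, against 23.5%, by edgeR's quasi-likelihood test at an adjusted p under 0.01. The shares were thus near those of all genes. The median log2 fold change over the members was -0.03, against 0.00 over all genes, and -0.06 with ratios of summed counts, none set below 3 counts, for members with 12 or fewer counts in a group.

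Among the regulators, NFE2L2 was at 163, 147 and 153 CPM in DMSO and 255, 253 and 196 CPM with ML355, so the groups did not overlap. It rose 1.52-fold (log2 fold change 0.60, standard error (SE) 0.12, edgeR adjusted p = 5.83e-04). MAFG, the small MAF partner, went from 98.4, 83 and 86.1 CPM to 174, 180 and 214 CPM. Every library with ML355 lay above every DMSO library, and the rise was 2.12-fold (log2 fold change 1.08, SE 0.11, edgeR adjusted p = 7.49e-07). KEAP1 was at 36, 33.7 and 29.1 CPM in DMSO and 25.8, 22.2 and 31.2 CPM with ML355, groups that overlapped, and its log2 fold change of -0.32 (SE 0.13, edgeR adjusted p = 0.0405) did not pass.

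Of the 4 genes of glutathione synthesis and recycling, 1 rose. GCLC and GCLM encode the catalytic and the modifier subunit of glutamate-cysteine ligase, the first step of glutathione synthesis. GCLC was at 71.2, 62 and 62.2 CPM in DMSO and 66.1, 73.3 and 74.6 CPM with ML355 (log2 fold change 0.13, SE 0.12, edgeR adjusted p = 0.383). GCLM was at 152, 130 and 119 CPM in DMSO and 121, 136 and 129 CPM with ML355 (log2 fold change -0.06, SE 0.13, edgeR adjusted p = 0.744). The groups overlapped for both subunits. GSR, which encodes glutathione reductase, rose 1.34-fold, from 78.1 ± 2.31 to 104 ± 7.71 CPM (SD, n = 3), without overlap. Its call was lost without replicate 1 or 2 of DMSO or replicate 1 of ML355. GPX2, a glutathione peroxidase gene, had 1 count in DMSO and 2 with ML355, at or under the floor of 3 counts, so no fold change is given.

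In the thioredoxin system 1 gene rose and 1 fell. SRXN1 encodes sulfiredoxin, which restores overoxidised peroxiredoxins, and had 3, 2 and 3 counts in DMSO and 21, 11 and 13 counts with ML355. The groups did not overlap and the ratio of summed counts was 5.39 (95% interval 2.51 to 13.2, edgeR adjusted p = 0.0016). The call of SRXN1 was lost without replicate 1 of ML355 and with voom. PRDX1, a peroxiredoxin gene, was at 728, 685 and 622 CPM in DMSO and 418, 407 and 442 CPM with ML355, and fell 1.61-fold without overlap (log2 fold change -0.68, SE 0.11, edgeR adjusted p = 5.35e-05). TXNRD1, which encodes thioredoxin reductase, was at 549 ± 64.5 and 460 ± 39.6 CPM (SD, n = 3), with a log2 fold change of -0.25 (SE 0.15, edgeR adjusted p = 0.164). The log2 fold change of thioredoxin itself, TXN, was -0.28 (edgeR adjusted p = 0.145), with 553, 527 and 465 CPM in DMSO and 459, 401 and 412 CPM with ML355.

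Of 4 genes of NADPH supply 3 rose. The transketolase gene TKT was at 702, 741 and 793 CPM in DMSO and 1526, 1099 and 1521 CPM with ML355. The groups did not overlap, and the rise was 1.85-fold (log2 fold change 0.89, SE 0.14, edgeR adjusted p = 5.94e-05). PGD, which encodes an NADPH-forming dehydrogenase of the pentose phosphate pathway, rose 1.35-fold and the malic enzyme gene ME1 1.37-fold, both without overlap. The call of PGD was lost on leaving out any DMSO replicate, replicate 1 of ML355 or replicate 3 of ML355. The log2 fold change of the transaldolase gene TALDO1 was -0.09 (edgeR adjusted p = 0.691).

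The aldo-keto reductase genes, whose products reduce sugars, steroids and lipid aldehydes, held the largest falls of the set with ML355 among members with more than 12 counts per group. Of 5 such genes 4 fell. AKR1B1 was at 2011, 2015 and 1629 CPM in DMSO and 423, 366 and 424 CPM with ML355, a fall of 4.66-fold without overlap (log2 fold change -2.22, SE 0.13, edgeR adjusted p = 2.23e-09). AKR1C2 went from 71.1, 65 and 61.1 CPM to 16.8, 16.6 and 13.9 CPM (log2 fold change -2.06, SE 0.15, edgeR adjusted p = 1.24e-08). AKR1C1 went from 86.4, 80.9 and 70.5 CPM to 21.2, 17.6 and 23.8 CPM (log2 fold change -1.93, SE 0.16, edgeR adjusted p = 6.13e-08). In all 3 genes every library with ML355 lay below every DMSO library. AKR1C3, a prostaglandin F synthase and steroid dehydrogenase gene, fell 2.57-fold, from 191 ± 10.4 to 74.2 ± 3.51 CPM (SD, n = 3, log2 fold change -1.36, edgeR adjusted p = 2.24e-07). AKR1B10 had 9 counts in DMSO and 19 with ML355, with a ratio of 2.02 (95% interval 0.872 to 5.08) that did not pass.

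Of the 7 other oxidoreductase and hydrolase genes, 3 fell and 1 rose. NQO1, a quinone reductase gene used as a readout of NRF2, was at 416, 411 and 405 CPM in DMSO and 286, 238 and 301 CPM with ML355. It fell 1.49-fold without overlap (log2 fold change -0.58, SE 0.13, edgeR adjusted p = 0.00133). The microsomal epoxide hydrolase gene EPHX1 fell 1.51-fold (log2 fold change -0.60, edgeR adjusted p = 8.48e-04) and the carbonyl reductase gene CBR1 1.65-fold (log2 fold change -0.72, edgeR adjusted p = 0.00225), both without overlap. The call of CBR1 was lost without DMSO replicate 2, ML355 replicate 2 or ML355 replicate 3. PIR, which encodes pirin, a nuclear protein of the cupin family, rose from 49.7, 53.7 and 49.6 CPM to 95.1, 94.7 and 104 CPM (log2 fold change 0.94, SE 0.13, edgeR adjusted p = 1.29e-05). ALDH3A1 was at 4.7, 6.15 and 5.69 CPM in DMSO and 2.76, 3.4 and 4.73 CPM with ML355, groups that overlapped, and its log2 fold change of -0.61 (edgeR adjusted p = 0.0147) did not pass. The carbonyl reductase gene CBR3, at 1.56 and 1.83 CPM, did not pass either. CYP4F11, a fatty acid hydroxylase gene, had 0, 0 and 4 counts in DMSO and 2, 10 and 3 counts with ML355. These groups overlapped, and the ratio of summed counts of 3.59 (95% interval 1.14 to 14.9, edgeR adjusted p = 0.0798) did not pass.

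Among the transporters 1 of 4 fell. ABCC2, which encodes an exporter of glutathione conjugates, was at 125, 118 and 133 CPM in DMSO and 43.2, 45.8 and 41.5 CPM with ML355. That was a fall of 2.88-fold without overlap (log2 fold change -1.53, SE 0.17, edgeR adjusted p = 1.41e-06). The log2 fold changes of its relatives ABCC1 and ABCC3 were -0.01 and -0.14, and that of the heme transporter gene SLC48A1 was 0.33 (edgeR adjusted p = 0.0229). None of these 3 passed. Neither glutathione transferase gene passed, with log2 fold changes of -0.07 for GSTM3 and 0.24 for GSTP1, nor did OSGIN1, a growth inhibitor gene induced by oxidative stress, at 0.14. With scaling by library size alone, which moved the median of all genes to -0.13, NFE2L2, GSR, PGD and ME1 no longer passed, and 4 members rose. That scaling moved the split of all calls to 39.3% higher from 47.6%.

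**Figure D2:**
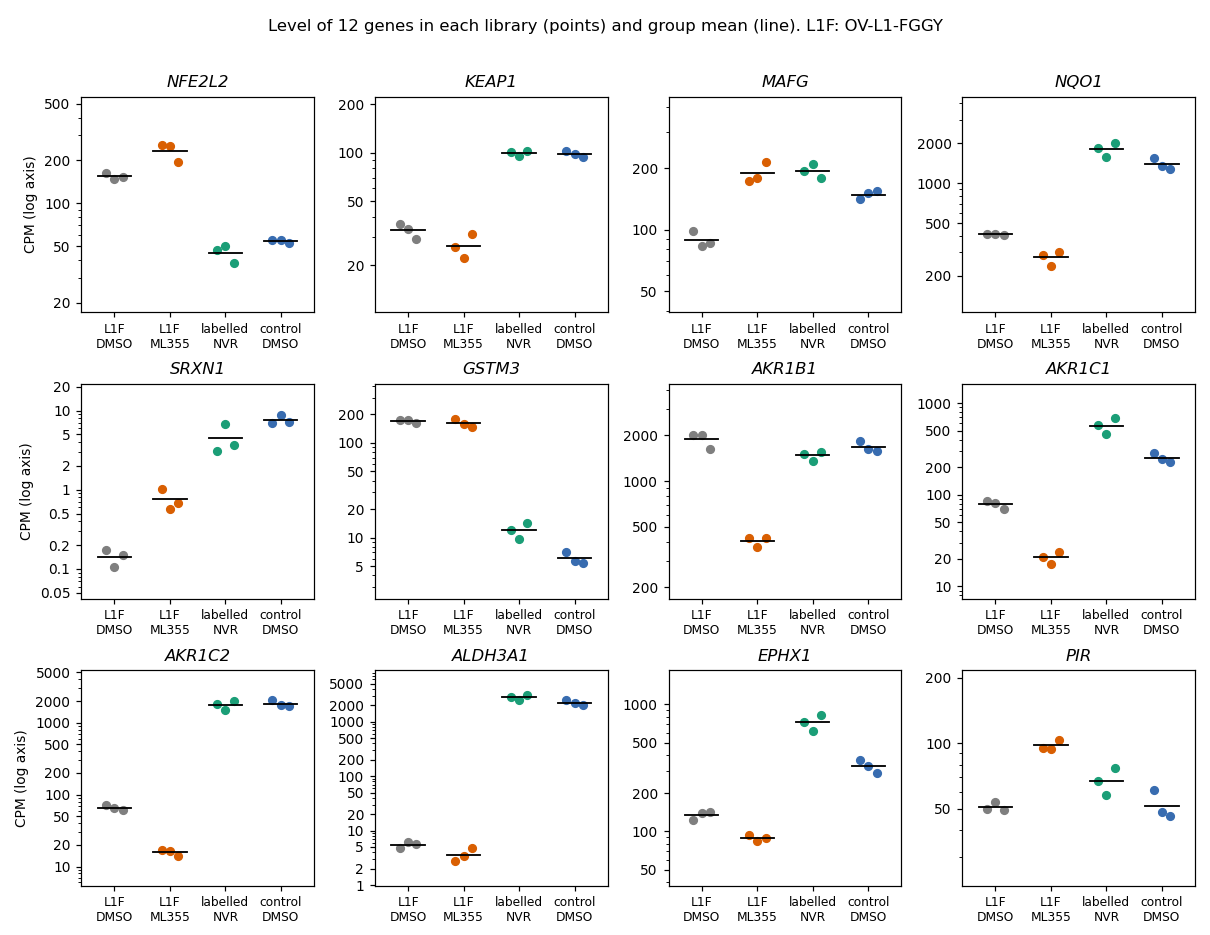
Level of 12 genes in CPM on a log axis, with a point for each library and a line at the group mean. AKR1B1 sits at 1629 to 2015 CPM in OV-L1-FGGY with DMSO and at 366 to 424 CPM with ML355, NFE2L2 and KEAP1 take opposite orders between the libraries with high and with low FGGY, and AKR1C1 and EPHX1 are highest in the NVR-labelled libraries.

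The NVR-labelled libraries were compared with the control in DMSO, the group whose FGGY level they shared. By their labels these groups differ in line and in inhibitor at once, which cannot be told apart. EPHX1, AKR1C1, OSGIN1 and both glutathione transferase genes were among those higher in them, and GCLC, GPX2 and the exporter genes ABCC2 and ABCC3 were lower. Of the 34 members 9 were higher, against 14.5% of all genes tested, and 4 were lower, against 15.3%. The median log2 fold change was 0.18 over the members and 0.00 over all genes. Scaling by library size alone moved the median of all genes to -0.15 and the split of all calls from 48.8% to 36.3% higher. It left 10 of the 13 member calls, without CBR1, CYP4F11 and SLC48A1.

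The regulators did not pass. NFE2L2 was at 47.1, 49.8 and 38 CPM in the NVR-labelled libraries and 54.9, 54.8 and 52.7 CPM in the control, a log2 fold change of -0.27 (SE 0.13, edgeR adjusted p = 0.0964). KEAP1 was at 101, 95.9 and 103 CPM and 102, 98.4 and 93.3 CPM, groups that overlapped, with a log2 fold change of 0.02 (SE 0.12, edgeR adjusted p = 0.895). The log2 fold change of MAFG was 0.39 (edgeR adjusted p = 0.0105). NQO1 was at 1845, 1579 and 2016 CPM and at 1545, 1338 and 1280 CPM in the control. Its groups did not overlap, and its log2 fold change of 0.39 (SE 0.13, edgeR adjusted p = 0.025) did not pass.

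EPHX1 was at 724, 618 and 826 CPM in the NVR-labelled libraries and 365, 325 and 291 CPM in the control, 2.21-fold higher without overlap (log2 fold change 1.15, SE 0.13, edgeR adjusted p = 4.30e-06). AKR1C1 was at 573, 455 and 681 CPM and 285, 243 and 230 CPM, 2.25-fold higher without overlap (log2 fold change 1.17, SE 0.15, edgeR adjusted p = 1.83e-05). Its close copy AKR1C2, at 1817, 1504 and 2020 CPM and 2073, 1765 and 1698 CPM, overlapped between the groups and had a log2 fold change of -0.05 (edgeR adjusted p = 0.785). AKR1C1 was thus the one aldo-keto reductase gene of 5 that passed. OSGIN1 was at 137, 114 and 162 CPM against 77.6, 67.9 and 58.5 CPM (log2 fold change 1.02, SE 0.17, edgeR adjusted p = 1.51e-04). GSTM3 was at 12, 9.74 and 14.2 CPM against 7.07, 5.59 and 5.37 CPM (log2 fold change 0.99, SE 0.15, edgeR adjusted p = 9.21e-05). These 4 genes, EPHX1, AKR1C1, OSGIN1 and GSTM3, passed at this threshold in every refit.

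CYP4F11 was 1.77-fold higher, at 78, 83.3 and 76.6 CPM against 43.4, 43.7 and 47 CPM (log2 fold change 0.83, SE 0.18, edgeR adjusted p = 0.00154). PGD and SLC48A1 were 1.43-fold and 1.46-fold higher, without overlap. CBR1 and GSTP1, the gene of the pi class glutathione transferase, also passed as higher (log2 fold changes 0.67 and 0.76), but their groups overlapped. GSTP1 was at 1505, 1096 and 2120 CPM in the NVR-labelled libraries and 1134, 879 and 781 CPM in the control.

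The 4 lower members were GCLC, GPX2, ABCC2 and ABCC3. ABCC2 was at 108, 143 and 82.9 CPM against 156, 198 and 220 CPM in the control, 1.72-fold lower without overlap (log2 fold change -0.78, SE 0.16, edgeR adjusted p = 0.00128). GCLC was at 104, 128 and 92.6 CPM against 135, 153 and 156 CPM (log2 fold change -0.45, SE 0.12, edgeR adjusted p = 0.00701). GPX2, at 71.3, 61.6 and 87 CPM against 134, 108 and 97.2 CPM, was 1.54-fold lower without overlap. ABCC3 was 1.38-fold lower. GCLM (log2 fold change -0.32, edgeR adjusted p = 0.0599), TXNRD1 (-0.35, edgeR adjusted p = 0.071) and SRXN1 (-0.75, edgeR adjusted p = 0.0311) did not pass. A fit of only these 2 groups kept 5 of the 13 calls and lost those of PGD, CBR1, GSTP1, SLC48A1, GCLC, GPX2, ABCC2 and ABCC3. On leaving out 1 library the number of calls ran from 6 without control replicate 2 to 18 without replicate 2 of the NVR-labelled libraries, and it was 7 without control replicate 3 or without replicate 1 of the NVR-labelled libraries.

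A difference between the changes was tested directly, as the change of the NVR-labelled libraries against the control minus that of ML355 against DMSO. It passed for 15 of the 34 members, against 34.1% of all genes tested, 11 of them with the value for the NVR-labelled libraries above that for ML355. The 2 changes have different lines and different DMSO groups behind them, and by label that of the NVR-labelled libraries is of line and inhibitor at once. AKR1C1, EPHX1 and CBR1 fell with ML355 and were higher in the NVR-labelled libraries, with differences of 3.10 (SE 0.22, edgeR adjusted p = 2.71e-08), 1.74 (SE 0.18, edgeR adjusted p = 1.39e-06) and 1.39 (SE 0.24, edgeR adjusted p = 2.22e-04) on the log2 scale. For PGD, which was higher in both, the difference was 0.09 (SE 0.17, edgeR adjusted p = 0.716).

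**Figure D3:**
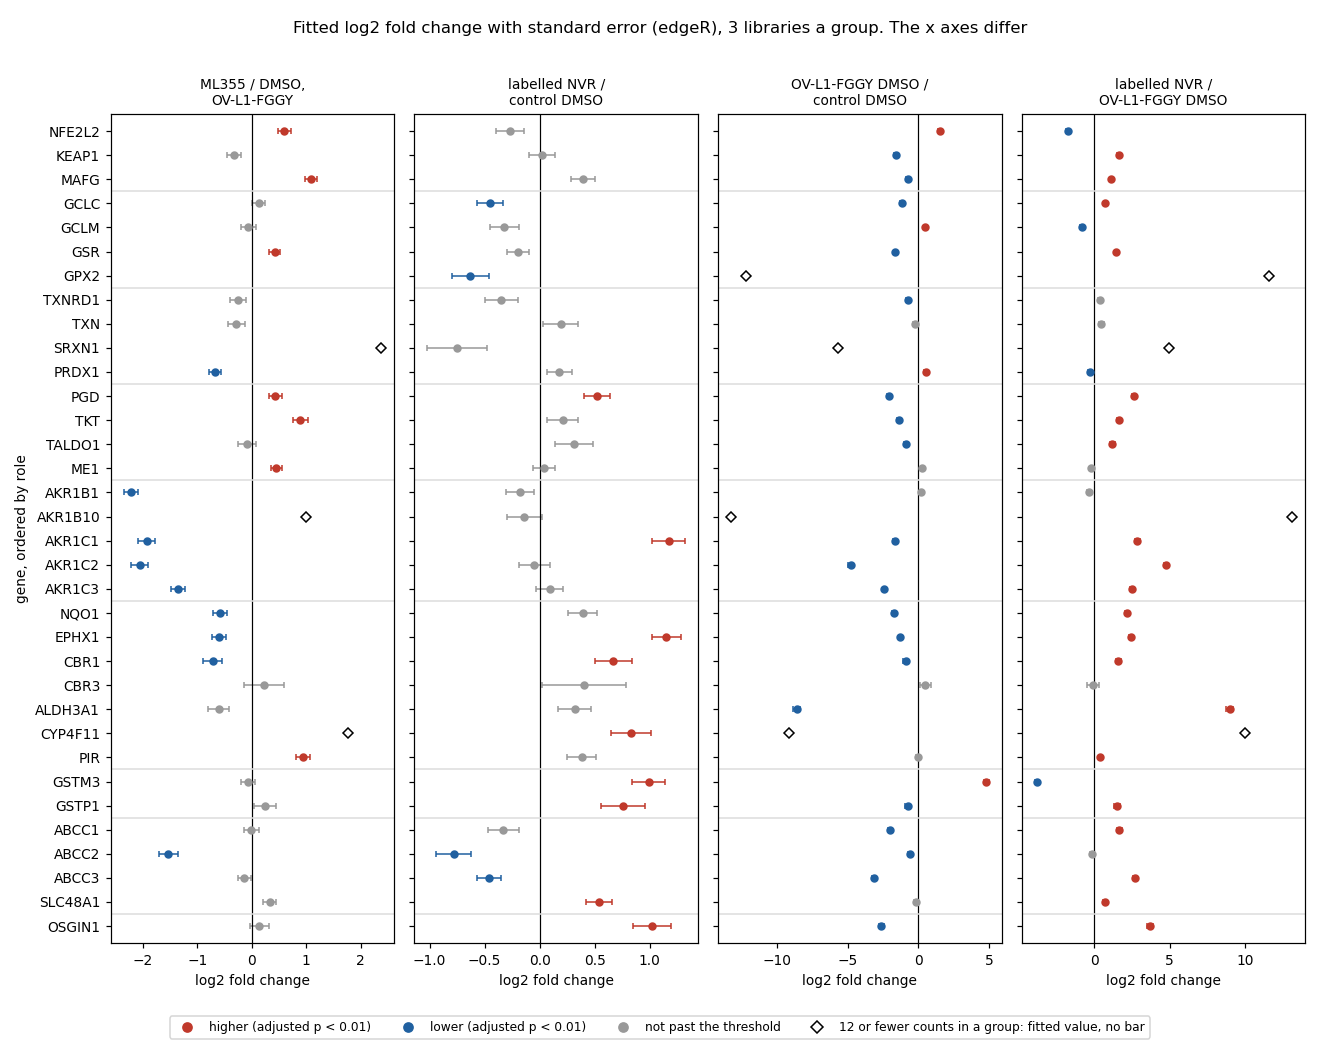
Log2 fold changes with standard errors (bars) of the 34 genes in 4 comparisons of 3 libraries each, with separate x axes. Red and blue points passed an adjusted p under 0.01, and open diamonds have 12 or fewer counts in a group and show the fitted value alone, and GPX2 with ML355 is left out because both groups were at or under 3 counts. The aldo-keto reductase genes lie between -2.22 and -1.36 with ML355 apart from AKR1B10, and most members lie left of 0 for OV-L1-FGGY against the control.

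OV-L1-FGGY and the control were compared in DMSO. In OV-L1-FGGY the transcripts of most of the NRF2 targets in this chosen set were lower and that of NFE2L2 was higher. Of the 34 members 24 were lower, against 36.2% of all genes tested, and 4 were higher, against 32.5%. The median log2 fold change was -1.23 over the members and -0.11 over all genes. The same DMSO libraries of OV-L1-FGGY served as the baseline of ML355 and of the second comparison of the NVR-labelled libraries, and the control is shared as well, so the comparisons are not independent.

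NFE2L2 was at 163, 147 and 153 CPM in OV-L1-FGGY and at 54.9, 54.8 and 52.7 CPM in the control, 2.85-fold higher without overlap (log2 fold change 1.51, SE 0.13, edgeR adjusted p = 1.63e-08). KEAP1 was at 36, 33.7 and 29.1 CPM against 102, 98.4 and 93.3 CPM, 2.98-fold lower (log2 fold change -1.57, SE 0.13, edgeR adjusted p = 9.53e-09). MAFG was 1.67-fold lower. NQO1 was at 416, 411 and 405 CPM against 1545, 1338 and 1280 CPM, 3.38-fold lower without overlap (log2 fold change -1.76, SE 0.13, edgeR adjusted p = 5.45e-09).

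The 6 members that lay furthest below the control were AKR1B10, GPX2, CYP4F11, ALDH3A1, SRXN1 and AKR1C2. ALDH3A1 was at 4.7, 6.15 and 5.69 CPM in OV-L1-FGGY and at 2463, 2194 and 2026 CPM in the control, 404-fold lower (log2 fold change -8.65, SE 0.22, edgeR adjusted p = 1.60e-14). AKR1B10, which encodes a retinal and aldehyde reductase, had 9 counts in OV-L1-FGGY and 125718 in the control, a ratio of 10427 (95% interval 5493 to 22804). AKR1C2 was at 71.1, 65 and 61.1 CPM against 2073, 1765 and 1698 CPM, 28.1-fold lower. CYP4F11 had 4 counts against 3376, a ratio of 630 (95% interval 246 to 2314), and GPX2 had 1 count against 8481, a ratio of 6331 (95% interval 1136 to 250083). SRXN1 had 8 counts against 576, a ratio of 53.7 (95% interval 27.1 to 125). In each of these 6 genes the highest library of OV-L1-FGGY lay below the lowest of the control. AKR1B1, next to AKR1B10 on chromosome 7, did not pass (log2 fold change 0.16, SE 0.13, edgeR adjusted p = 0.251).

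The direction was not uniform within the glutathione genes. GCLC was 2.27-fold lower in OV-L1-FGGY, at 71.2, 62 and 62.2 CPM against 135, 153 and 156 CPM (log2 fold change -1.19, SE 0.12, edgeR adjusted p = 2.47e-07). GCLM was 1.40-fold higher, at 152, 130 and 119 CPM against 87.3, 101 and 98 CPM (log2 fold change 0.49, SE 0.13, edgeR adjusted p = 0.00302). Both subunits were without overlap, and the call of GCLM was lost without replicate 1 of OV-L1-FGGY or replicate 1 of the control. GSTM3 was at 173, 174 and 161 CPM in OV-L1-FGGY and at 7.07, 5.59 and 5.37 CPM in the control, 28.2-fold higher (log2 fold change 4.82, SE 0.16, edgeR adjusted p = 2.65e-13). GSTP1 was 1.70-fold lower. GSR was 3.16-fold lower and PRDX1 1.42-fold higher. TXNRD1 was at 606, 479 and 562 CPM against 778, 920 and 1006 CPM (log2 fold change -0.72, SE 0.15, edgeR adjusted p = 4.37e-04).

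The genes of the pentose phosphate pathway were lower, PGD 4.31-fold, TKT 2.64-fold and TALDO1 1.84-fold, whereas ME1 had a log2 fold change of 0.27 (edgeR adjusted p = 0.0183). The exporter genes ABCC1, ABCC2 and ABCC3 were 3.98-fold, 1.53-fold and 8.84-fold lower. OSGIN1, AKR1C3, AKR1C1, EPHX1 and CBR1 were 6.29-fold, 5.35-fold, 3.19-fold, 2.43-fold and 1.87-fold lower. The call of ABCC2 was lost without replicate 1 or 2 of OV-L1-FGGY or replicate 2 or 3 of the control, and that of GSTP1 without replicate 1 of either group. Besides AKR1B1 and ME1, the members that did not pass were TXN, CBR3, SLC48A1 and PIR.

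By their labels the NVR-labelled libraries would be set against OV-L1-FGGY in DMSO, from which their FGGY level also differed (log2 fold change -6.08, SE 0.16, edgeR adjusted p = 2.90e-14). Against this baseline 24 of 34 members were higher, with 38.2% of all genes tested higher, and 4 were lower, with 35.4%. The median log2 fold change was 1.54 over the members and 0.08 over all genes, and the latter became -0.16 with scaling by library size alone. NFE2L2 was 3.43-fold lower (log2 fold change -1.78, SE 0.13, edgeR adjusted p = 2.02e-09) and KEAP1 3.03-fold higher (log2 fold change 1.60, SE 0.13, edgeR adjusted p = 6.30e-09). ALDH3A1 was 505-fold higher and AKR1C2 27.1-fold, and the ratio of AKR1B10 was 9487 (95% interval 4998 to 20749). The ratios of GPX2, CYP4F11 and SRXN1 were 4034 (95% interval 724 to 159382), 1123 (438 to 4125) and 33.3 (16.7 to 77.9). NQO1 was 4.42-fold higher (log2 fold change 2.14, SE 0.14, edgeR adjusted p = 4.41e-10) and GCLC 1.66-fold higher (log2 fold change 0.73, SE 0.12, edgeR adjusted p = 4.56e-05), whereas GCLM was 1.75-fold lower (log2 fold change -0.81, SE 0.13, edgeR adjusted p = 3.23e-05). TXNRD1 had a log2 fold change of 0.36 (SE 0.15, edgeR adjusted p = 0.0356). PRDX1 and GSTM3 completed the lower members, and the calls of PRDX1 and PIR were each lost on leaving out any of several libraries, replicate 1 of either group among them.

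**Figure D4:**
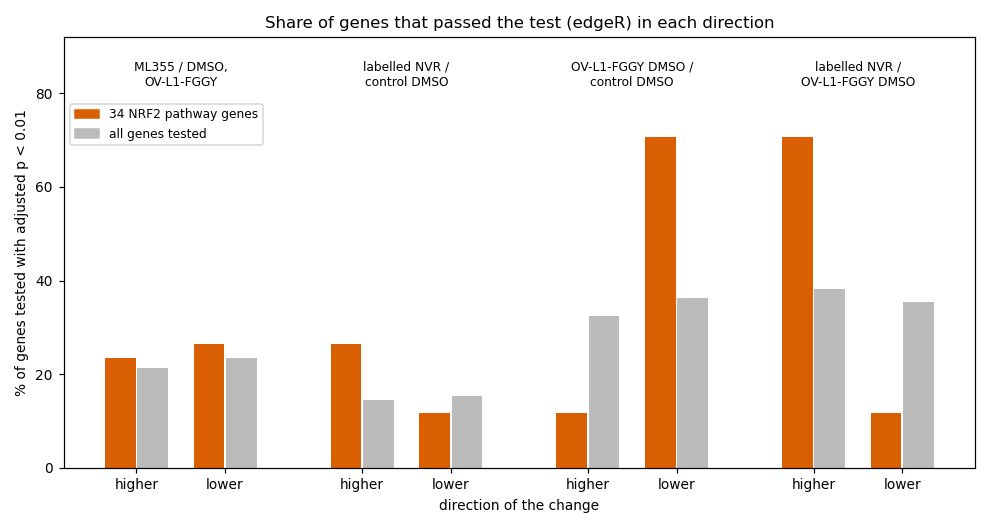
Share of genes tested, in percent, that passed an adjusted p under 0.01 as higher or lower in each comparison, for the 34 members (orange) and for all 17849 genes (grey). The orange and grey bars are near each other for ML355, and 24 of 34 members were lower in OV-L1-FGGY than in the control, against 36.2% of all genes.

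Other genes of the pathway were read from 3 lists. Of 20 further regulators of NRF2, all tested, 5 rose and 7 fell with ML355, where 21.3% of all genes rose and 23.5% fell. In OV-L1-FGGY 8 were higher and 7 lower than in the control, beside 32.5% and 36.2% of all genes. BTRC, an adaptor of a second ubiquitin ligase that degrades NRF2, fell with ML355 from 82.8, 74 and 87.9 CPM to 16.4, 18.6 and 14.8 CPM (log2 fold change -2.29, SE 0.12, edgeR adjusted p = 5.15e-10). NFE2L1, which encodes the related factor NRF1, rose from 107, 104 and 122 CPM to 399, 405 and 458 CPM (log2 fold change 1.92, SE 0.15, edgeR adjusted p = 3.18e-08). Neither gene overlapped between these groups. In the NVR-labelled libraries against the control 1 regulator was higher and 5 were lower, beside 14.5% and 15.3% of all genes. Among the 5 were PALB2, which binds KEAP1 (log2 fold change -1.13, edgeR adjusted p = 2.88e-06), and the mitochondrial phosphatase gene PGAM5 (-0.49, edgeR adjusted p = 8.95e-04). In OV-L1-FGGY against the control BTRC and PALB2 were 4.29-fold and 3.28-fold higher. In the NVR-labelled libraries against OV-L1-FGGY 6 regulators were higher and 9 lower, beside 38.2% and 35.4% of all genes, with BTRC and PALB2 4.03-fold and 7.17-fold lower.

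Of 34 further reported targets 30 were tested. With ML355 8 rose and 7 fell, where 21.3% of all genes rose and 23.5% fell. Against the control, 10 were higher and 4 lower in the NVR-labelled libraries, beside 14.5% and 15.3% of all genes, and in OV-L1-FGGY against the control 8 were higher and 15 lower, beside 32.5% and 36.2%. ABHD4, a phospholipase gene, and TRIM16 rose with ML355 (log2 fold changes 1.08 and 1.34, edgeR adjusted p = 1.26e-07 and 8.37e-07). In the NVR-labelled libraries against the control, UGDH, which makes UDP-glucuronic acid, was 1.89-fold lower and the glutathione transferase gene GSTA4 2.16-fold higher. TRIM16L was 6.54-fold lower in OV-L1-FGGY than in the control, and GSTM1, a neighbour of GSTM3 in the same family, had 2670 counts in OV-L1-FGGY and 0 in the control and in the NVR-labelled libraries. That made GSTM1 at least 1192-fold and at least 1031-fold higher than in these groups, against a floor of 3 counts over the group. With ML355 it had 2257 counts. Whether the cells without counts carry the GSTM1 gene was not tested, so these bounds need not be a change in its expression. TRIM16L was 7.26-fold higher in the NVR-labelled libraries than in OV-L1-FGGY, where 14 targets were higher and 5 lower in all, beside 38.2% and 35.4% of all genes.

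Of 31 other antioxidant enzyme genes 28 were tested, and 8 rose and 8 fell with ML355, beside 21.3% and 23.5% of all genes. SESN2, a sestrin gene induced by stress, rose from 9.01, 11.6 and 8.16 CPM to 67, 123 and 92.5 CPM (log2 fold change 3.30, SE 0.20, edgeR adjusted p = 2.22e-09). TXNIP, which encodes the inhibitor of thioredoxin, rose from 79.6, 109 and 75 CPM to 393, 509 and 447 CPM (log2 fold change 2.35, SE 0.19, edgeR adjusted p = 4.18e-08). Both rose without overlap, beside no passing change in TXN. In the NVR-labelled libraries against the control 8 were higher and 3 lower, beside 14.5% and 15.3% of all genes, with log2 fold changes of 2.37 for SESN3 and 1.59 for the methionine sulfoxide reductase gene MSRB2. In OV-L1-FGGY against the control 8 were higher and 13 lower, beside 32.5% and 36.2% of all genes. PRDX2 was 313-fold higher there, at 95.7 ± 5.36 CPM against 0.305 ± 0.120 CPM (SD, n = 3), and GLRX5, a mitochondrial glutaredoxin gene, was 4.29-fold lower. In the NVR-labelled libraries against OV-L1-FGGY 14 were higher and 5 lower, beside 38.2% and 35.4% of all genes. There PRDX2 had 8 counts against 5394, a ratio of 781 (95% interval 396 to 1810), and the gamma-glutamyltransferase gene GGT1 was 8.33-fold higher.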

How the data were processed

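The deposited values are whole-number counts per gene, which the authors made with STAR 2.5.3a on hg38 and HTSeq 0.11.2 and did not normalize. The annotation release, the strand setting and the handling of reads with several positions are not given in the sources used here. The labels name a TruSeq kit and the study's methods another. In the count table the columns of the NVR-labelled libraries lack the part of the name that marks OV-L1-FGGY, as those of the control lack theirs. Of 58302 identifiers 57532 were matched to symbols of GENCODE 44.

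Counts were fitted in R 4.3.3 with edgeR 4.0.16 (filterByExpr, TMM, 1 robust quasi-likelihood fit over all 12 libraries with a mean per group, Benjamini-Hochberg adjusted p under 0.01 over 17849 genes). The study's own test was voom of limma at the same threshold. Total counts ran from 16242082 to 27004768 per library, and intervals cover counting error only. Levels per kb used the MANE Select transcript of GENCODE 44. Tables, motif counts and figures were made with Python 3.11.15, and the fit was tested on simulated data. Other settings tried were voom of limma 3.58.1, DESeq2 1.42.0, other scalings and filters, a fit of only the groups compared, a replicate block, each library left out and other thresholds.

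Members and lists were chosen with earlier results of these data known. Named in every comparison are NFE2L2, KEAP1, NQO1, GCLC, GCLM, TXNRD1 and SRXN1. The rule added the 6 members with the largest change among those that passed without overlap of the groups and averaged 1 CPM or more, and up to 2 genes per other list with the smallest adjusted p. Other members are given with their role.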

Additional observations from a re-analysis of the deposited data

Results flagged for a closer look

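The change in the NVR-labelled libraries (against the control) and that with ML355 (against DMSO in OV-L1-FGGY) were compared by edgeR's test of the difference. They differed in 15 members, each an interaction of 12 libraries in 4 groups of 3. The value was above 0, so that the NVR-labelled libraries stood higher relative to their baseline than those with ML355 did to theirs, for AKR1C1 (3.10), AKR1B1 (2.04), AKR1C2 (2.01), EPHX1 (1.74), AKR1C3 (1.45), CBR1 (1.39), GSTM3 (1.06), NQO1 (0.97), ALDH3A1 (0.93), OSGIN1 (0.88) and PRDX1 (0.86), all on the log2 scale. It was below 0 for SRXN1 (-3.13), NFE2L2 (-0.87), MAFG (-0.70) and GSR (-0.62). SRXN1 had 8 counts in its baseline, so that its fitted value depends on the prior count. The lines, inhibitors, doses and DMSO groups differ between both changes at once and cannot be told apart.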

How the results depend on the processing

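Most named results kept their call. Of 73 pairs of a named gene and a comparison, 62 passed the test. Of these, 56 passed in the same direction in every alternative fit that tested the gene. The call was lost in at least 1 fit for 6, and 0 changed direction. These fits kept the adjusted p under 0.01, and the other thresholds, such as a required fold change, were not counted among them. Of the 11 that did not pass, 6 passed in at least 1 alternative. GCLM with ML355 changed sign among the fits that left out a library (log2 fold change -0.14 to 0.04), as did KEAP1 in the NVR-labelled libraries against the control (-0.01 to 0.06), which was -0.14 with library size alone.

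The number of members that rose with ML355 was 8, and 4 with library size alone, 2 with a log2 fold change of at least 1 required and 5 to 8 on leaving out a library. With that fold required, 5 fell with ML355. In the NVR-labelled libraries against the control, 9 were higher and 4 lower. These became 5 and 0 in a fit of only the groups compared (edgeR), 3 and 0 with the fold required, and 5 to 11 and 1 to 7 on leaving out a library. The replicate block left 2 lower there, without GCLC and GPX2, and lost GSTP1 among the higher. With the fold required, 2 were lower in the NVR-labelled libraries than in OV-L1-FGGY and 2 were higher in OV-L1-FGGY than in the control. In the test of the difference between the changes, 8 passed with the fold required. Equal replicate numbers did not pair the libraries (correlation of deviations -0.354 to 0.17). The cause of these changes was not tested beyond what each alternative leaves out. At the filter of 10 counts in every library AKR1B10, GPX2, CYP4F11 and SRXN1 were not tested.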

Other observations

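The genes below belong to the lists of other targets and antioxidant enzymes and were named after their values were seen, so that they stand as single values and not as groups. FTH1 and FTL, the ferritin chains, rose with ML355, FTH1 from 592, 569 and 818 CPM to 1994, 1169 and 3591 CPM (log2 fold change 1.77, SE 0.29, edgeR adjusted p = 8.80e-05) and FTL 2.19-fold (log2 fold change 1.13, edgeR adjusted p = 8.51e-05). BLVRB, a biliverdin reductase gene, rose 1.78-fold, whereas FECH, the ferrochelatase gene, fell 1.98-fold (log2 fold change -0.98, SE 0.14, edgeR adjusted p = 1.96e-05). The other biliverdin reductase gene, BLVRA, and the transporter gene ABCB6 did not pass with ML355 (log2 fold changes -0.22 and 1.03, edgeR adjusted p = 0.202 and 0.115). HMOX1, the inducible heme oxygenase gene, did not pass with ML355 (log2 fold change 0.39, SE 0.12, edgeR adjusted p = 0.0135), and it was 1.38-fold lower in the NVR-labelled libraries than in the control.

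SLC7A11, the cystine importer gene, fell 1.99-fold with ML355 (log2 fold change -0.99, SE 0.13, edgeR adjusted p = 7.73e-06). CHAC1, which encodes an enzyme that breaks down glutathione, rose 6.49-fold (log2 fold change 2.69, SE 0.25, edgeR adjusted p = 1.74e-07). GSS, the glutathione synthetase gene, rose 1.96-fold (log2 fold change 0.97, edgeR adjusted p = 2.81e-05) and the glutathione peroxidase gene GPX4 1.74-fold (log2 fold change 0.80, edgeR adjusted p = 0.00367), and GGT1 did not pass (log2 fold change -0.09, edgeR adjusted p = 0.635). NR0B1 was at 0 counts in all 6 libraries with high FGGY, with 3922 counts in the NVR-labelled libraries and 3273 in the control, at least 1128-fold and at least 814-fold above DMSO-treated OV-L1-FGGY against a floor of 3 counts. Whether the cells without counts carry the NR0B1 gene was not tested.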
